A study of Arabidopsis thaliana with 44 samples.

Results

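In shoots of 3-week-old Arabidopsis thaliana, 160 nuclear genes had transcript levels on opposite sides of WT in the mutants pkl-1 and pie1-5. They were picked from RNA-seq values in CPM, a gene's reads per 1000000 reads of all nuclear genes in that library. The gene had to average at least 2 CPM in WT. All pkl-1 libraries had to lie on one side of every WT library and all pie1-5 libraries on the other side, and both mutant means had to differ at least 1.5-fold from the WT mean. Of 32909 nuclear genes, 15882 reached the WT level, 334 of them had the libraries apart in opposite order, and 160 also met the fold limit. In 135 genes pkl-1 was lower and pie1-5 higher than WT, and in 25 genes pkl-1 was higher and pie1-5 lower. These RNA values of pkl-1, pie1-5 and WT chose the genes, so they are given here as a description and no test is made on them. The clf-28 RNA libraries and all chromatin immunoprecipitation (ChIP) libraries were not used in the choice.

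The plants were grown in soil with 16 h of light a day and had the genotypes pkl-1, pie1-5, clf-28 and WT, each mutant being a single allele of its gene. RNA-seq had 3 libraries per genotype, and ChIP against H3K27me3 or H2A.Z had 2 per genotype, which the design text calls independent biological replicates. Each deposited ChIP table set 1 mutant library against WT. The WT columns of the 6 H3K27me3 tables held 1 and the same library, which is counted once here, and those of the 6 H2A.Z tables held 2 libraries. ChIP libraries held 3.17 to 19.3 M reads (M stands for 1000000).

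PKL (PICKLE) is a chromatin remodeler of the CHD3 class that keeps embryonic genes off after germination and promotes trimethylation of histone H3 at lysine 27 (H3K27me3), the mark of Polycomb silencing. CLF (CURLY LEAF) is a catalytic subunit of the Polycomb complex that writes this mark in shoots. PIE1 is the motor subunit of SWR1, which exchanges histone H2A for the variant H2A.Z in nucleosomes. H2A.Z is found at the start of many expressed genes and over the bodies of genes that respond to the environment. Salicylic acid is the hormone of defence against biotrophic pathogens. Infection leads to its synthesis from isochorismate, EDS1 and PAD4 strengthen that step, and NPR1 and WRKY factors then switch on pathogenesis-related (PR) genes.

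The 12 RNA libraries held 21.6 to 33.1 M reads over genes. Reads fell on 21380 to 22847 genes, except in pkl-1 replicate 2 with 25807. The PIE1 transcript had 6.47, 6.55 and 10.9 CPM in pie1-5, against 13.6, 11.4 and 15.7 CPM in WT. PKL had 38.3, 46.6 and 59.8 CPM in pkl-1, against 29.8, 25.1 and 27.6 CPM in WT, and CLF had 41.3, 35.4 and 76.3 CPM in clf-28, against 5.11, 9.93 and 4.26 CPM in WT. Neither transcript was reduced in its own mutant, so these levels do not check the labels of pkl-1 and clf-28. Green tissue was present throughout. The 32 photosystem and antenna genes summed to 72000 to 77400 CPM in pkl-1 and 70100 to 76700 CPM in pie1-5. They summed to 80300 to 89400 CPM in clf-28 and 81800 to 89500 CPM in WT. Of 20 embryo and seed storage genes, 12 had no read in any WT library. PHE1, a MADS-box gene of the endosperm and a known Polycomb target, had 56.2, 58.8 and 61.4 CPM in pkl-1, at most 1.31 CPM in pie1-5, at most 0.895 CPM in clf-28 and at most 0.666 CPM in WT. The other 19 genes of this list summed to 1.81 to 8.94 CPM in pkl-1, 4.07 to 7.33 CPM in pie1-5, 1.54 to 2.15 CPM in clf-28 and 1.13 to 3.5 CPM in WT. Senescence genes (18) summed to 607 to 787 CPM in pkl-1, 317 to 606 CPM in pie1-5, 1200 to 1810 CPM in clf-28 and 807 to 966 CPM in WT. Floral identity genes (14) summed to 148 to 178 CPM in clf-28 and at most 56.3 CPM elsewhere. That difference lay mainly in AG (at most 59.7 CPM in clf-28 and 1.14 CPM in WT) and SEP3 (at most 53.1 and 0.618 CPM). The highest clf-28 library was not above the highest WT library for PI, LFY, CAL and AGL8, and the other listed genes differed by less than AG and SEP3. Root markers (15 genes) summed to 220 to 264 CPM in pkl-1, 271 to 353 CPM in pie1-5, 157 to 228 CPM in clf-28 and 169 to 243 CPM in WT. The part of these tissues and stages in the results below was not tested, and in whole shoots fewer cells of a type and less RNA per cell cannot be told apart.

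Among the 135 genes lower in pkl-1 and higher in pie1-5, the median difference from WT was 2.53-fold in pkl-1 (1.51 to 103) and 2.17-fold in pie1-5 (1.5 to 7.19). The pkl-1 difference was the larger in 87 of them. Among the 25 genes with the reverse pattern the median was 1.93-fold in pkl-1 (1.5 to 21.7) and 2.37-fold in pie1-5 (1.52 to 21), and the pkl-1 difference was the larger in 6. All 135 are annotated as protein-coding, as are 23 of the 25, and the other 2 are a misc_RNA and an ncRNA. The genes lay on all 5 chromosomes. In 7 pairs, made of 13 genes, the genes stood next to each other in the annotation, and both genes of each pair were lower in pkl-1 and higher in pie1-5. Most members have that direction, and the pair PCC1 and AT3G22235 may share reads (below). Neighbours were not counted over all genes, so the pairs do not measure clustering. The split between the patterns depends on the scaling of the libraries. With CPM scaled by TMM factors it was 100 to 58 genes, with DESeq2 size factors 100 to 56, and each of these scalings found 120 of the 160 genes. On the CPM used here, the median log2 ratio to WT of the 15882 genes was -0.12 in pkl-1, 0.07 in pie1-5 and 0.15 in clf-28. Without pie1-5 replicate 1 the rule found 266 genes, 149 of them among the 160.

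**Figure D1:**
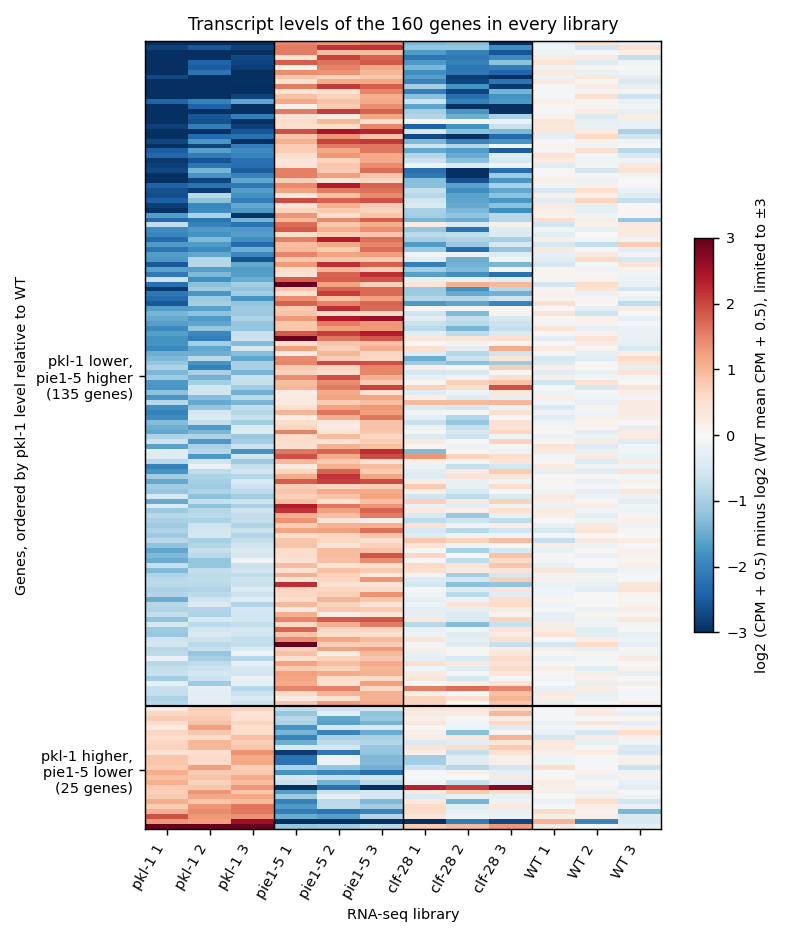
Transcript level of each of the 160 genes (rows, ordered by pkl-1 level within the 2 patterns) in each of the 12 RNA libraries (columns), as log2 (CPM + 0.5) minus log2 (WT mean CPM + 0.5), with colours limited to ±3. The 135 upper genes are blue in pkl-1 and red in pie1-5 and the 25 lower genes the reverse, as the rule requires, while clf-28, which the rule did not use, has blue in the upper rows and few strong colours elsewhere.

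The 1.5-fold limit cut through a continuum. Just inside it stood PPCK1 (2.12-fold in pkl-1, 1.5-fold in pie1-5), AT1G77890 (1.51 and 1.61) and ACD6 (5.35 and 1.52), and just outside stood WTF1 (1.5 and 1.6), AT4G28400 (1.49 and 1.83) and PRA1.B6 (1.64 and 1.49). For the reverse pattern AT3G48440 (1.5 and 1.59), PAM1 (1.52 and 1.86) and HB23 (2.05 and 1.52) were just inside, and AT5G16060 (1.5 and 4.5), AT3G05730 (1.5 and 2.08) and RCAR3 (1.49 and 1.55) just outside.

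Some genes of salicylic acid synthesis and response stood among the 135 genes. WRKY70, a transcription factor that promotes salicylic acid responses and dampens jasmonate responses, had 4.61, 5.54 and 5.83 CPM in pkl-1, 73.4, 144 and 94.3 CPM in pie1-5, and 25, 30.3 and 26 CPM in WT. PBS3, the enzyme that joins isochorismate to glutamate on the way to salicylic acid, had 1.69, 1.9 and 3.69 CPM in pkl-1, 21.5, 28.8 and 38 CPM in pie1-5, and 15.2, 11.9 and 4.4 CPM in WT. SARD1, a transcription factor that activates salicylic acid synthesis genes, had 0.7, 3.7 and 3.31 CPM in pkl-1, 15.6, 29.7 and 28 CPM in pie1-5, and 8.58, 11 and 5.49 CPM in WT. In each of these genes the pkl-1 libraries were lowest and the pie1-5 libraries highest, and for PBS3 and SARD1 the WT libraries were the more spread. EDS1, a lipase-like hub of immune receptor signalling, had a smaller range, with 8.34, 8.79 and 9.85 CPM in pkl-1, 24.5, 26 and 41 CPM in pie1-5, and 14.4, 15.8 and 16.9 CPM in WT. NIMIN-2, a partner of the salicylic acid receptor NPR1, had 4.08, 2.5 and 4.67 CPM in pkl-1, 26.9, 39.5 and 38.4 CPM in pie1-5, and 7, 9.22 and 12.8 CPM in WT. AT4G10500 (DLO1), an oxygenase that hydroxylates salicylic acid, had 0.175, 0.899 and 0.972 CPM in pkl-1, 12, 17.2 and 12.4 CPM in pie1-5, and 5.24, 10.1 and 4.12 CPM in WT. Of the matched list genes over 2 CPM, 3 of 12 for synthesis and signalling (PBS3, EDS1 and SARD1) and 1 of 8 for output (AT4G10500) were members. NIMIN-2 was named on the output list as NIMIN2, but that symbol was not matched to a single gene, so it is not counted. Of all 15882 genes over 2 CPM, 160 were members. ACD6, an ankyrin-repeat membrane protein that raises salicylic acid levels, had 4.14, 6.69 and 16.1 CPM in pkl-1, 81, 62.6 and 75.5 CPM in pie1-5, and 54.2, 41.9 and 48.2 CPM in WT.

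Pathogen-responsive genes were among the 12 leading genes when the 135 were ranked by the smaller of their differences. LURP1, named for its late induction by the oomycete Hyaloperonospora, had 2.68, 4.19 and 7.65 CPM in pkl-1, 179, 258 and 229 CPM in pie1-5, and 59.5, 57 and 23.49 CPM in WT. That is 9.64-fold below the WT mean in pkl-1 and 4.76-fold above it in pie1-5. PCC1, a small protein controlled by pathogens and the clock, had 12.7, 19.3 and 20.7 CPM in pkl-1, 668, 981 and 805 CPM in pie1-5, and 223, 271 and 193 CPM in WT. Its neighbour AT3G22235 had nearly the same values in every library (12.9, 19.3 and 25.1 CPM in pkl-1, 654, 935 and 762 CPM in pie1-5, 213, 270 and 184 CPM in WT), so reads may have been shared between them. The genes of this pair are not independent evidence, yet each of them enters the counts of genes given here. AT3G22240, next to it, had 2.16, 1.7 and 4.67 CPM in pkl-1, 29.7, 35.1 and 43.4 CPM in pie1-5, and 8.26, 8.65 and 6.8 CPM in WT. The 3 genes stand side by side on chromosome 3 and had the same pattern. PNP-A, a secreted natriuretic peptide, had 0.35, 1.2 and 0.194 CPM in pkl-1, 11.6, 23.4 and 24.6 CPM in pie1-5, and 5.05, 5.73 and 4.95 CPM in WT. ZAT7, a C2H2 zinc-finger protein of stress responses, had 1.81, 4.09 and 2.72 CPM in pkl-1, 32.4, 57.9 and 35.9 CPM in pie1-5, and 12.7, 10.1 and 10.2 CPM in WT.

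The other leading genes have no symbol in the gene table used or are receptor-like. RLP38, a receptor-like protein, had 0.525, 1.9 and 0.843 CPM in pkl-1, 21.5, 18.6 and 20.7 CPM in pie1-5, and 4.04, 8.4 and 2.95 CPM in WT. AT5G59670 had 0, 0.3 and 0.13 CPM in pkl-1, 14.4, 12.7 and 14.9 CPM in pie1-5, and 5.11, 2.76 and 3.37 CPM in WT. AT5G26690 had 0, 0.0999 and 0 CPM in pkl-1, 9.76, 15.3 and 15.4 CPM in pie1-5, and 2.71, 1.84 and 4.46 CPM in WT. These last genes were close to undetected in pkl-1. AT2G27660 had 0.35, 2.2 and 1.17 CPM in pkl-1, 11.3, 22.2 and 16.4 CPM in pie1-5, and 2.9, 4.2 and 5.98 CPM in WT. AT1G43910 had 1.22, 0.25 and 0.454 CPM in pkl-1, 8.79, 9.04 and 9.43 CPM in pie1-5, and 2.27, 2.46 and 1.85 CPM in WT. AT2G30766 had 0.525, 1.55 and 1.88 CPM in pkl-1, 76.1, 10.7 and 7.66 CPM in pie1-5, and 2.78, 6.66 and 3.71 CPM in WT. A single pie1-5 library made most of that last mean, and the gene overlaps CYP71A13, so that its reads and those of CYP71A13 cannot be told apart. Replicate 1 of pie1-5 stood over 2 times above both other pie1-5 libraries in 5 of the 135 genes, AT2G30766, AT1G06000, AT5G19875, AT5G62210 and PPa2. Of the 135 genes 41 overlap another annotated gene, as do 5 of the 25.

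The 135 genes, out of 15882 over 2 CPM, also held cell-surface and intracellular receptors. Of 23 cysteine-rich receptor-like kinases (CRKs) that reached 2 CPM in WT, 4 were among the 135 genes, and they form 2 neighbouring pairs, CRK6 with CRK7 and EP1 (also CRK9) with CRK10. CRK6 had 0.525, 1.65 and 1.94 CPM in pkl-1, 25.7, 40.6 and 41.8 CPM in pie1-5, and 22.4, 19.6 and 13.5 CPM in WT. CRK7 had 0.0583, 0.499 and 0.324 CPM in pkl-1, 4.69, 6.45 and 8.84 CPM in pie1-5, and 2.78, 3.79 and 1.24 CPM in WT. Both were much further from WT in pkl-1 than in pie1-5 (CRK6 13.5-fold and 1.95-fold, CRK7 8.85-fold and 2.56-fold). EP1 had 8.51, 12 and 16.9 CPM in pkl-1, 36, 68.6 and 68.1 CPM in pie1-5, and 34, 27 and 27.8 CPM in WT. CRK10 had 51.7, 77.4 and 86.2 CPM in pkl-1, 175, 238 and 225 CPM in pie1-5, and 167, 102 and 121 CPM in WT. In this second pair the pkl-1 difference was smaller (EP1 2.38-fold, CRK10 1.81-fold), and CRK10 overlaps CRK11, so that their reads cannot be told apart. LYK5, a receptor for chitin from fungal walls, had 9.51, 13.8 and 20.8 CPM in pkl-1, 102, 120 and 114 CPM in pie1-5, and 29.8, 24.8 and 31.3 CPM in WT. Its relative LYK4 had a smaller spread, with 3.38, 6.54 and 7.97 CPM in pkl-1, 16.2, 21 and 20.2 CPM in pie1-5, and 9.46, 11.3 and 12 CPM in WT. These 2 were the only members among 25 pattern receptor and signalling genes over 2 CPM. ADR1-L2, a helper NLR receptor that acts with EDS1, had 3.56, 6.89 and 8.3 CPM in pkl-1, 16, 22.6 and 19.9 CPM in pie1-5, and 11.2, 11.1 and 10.4 CPM in WT. RPS2, the NLR that guards against the bacterial effector AvrRpt2, had 2.68, 3.05 and 3.44 CPM in pkl-1, 17.63, 20.2 and 21.7 CPM in pie1-5, and 9.15, 11.9 and 14.3 CPM in WT. ADR1-L2 was the 1 member among 16 matched NLR genes over 2 CPM. RPS2 was named on that list too, but its symbol was not matched to a single gene, so it is not counted. In ADR1-L2 pkl-1 replicate 1 stood well below the other two pkl-1 libraries. RLP34 and RLP41 (receptor-like proteins), WAK3 (a wall-associated kinase) and WRR4 (an NLR for white rust resistance) were also among the 135 genes. Their differences from WT were 1.55-fold to 11.7-fold in pkl-1 and 1.81-fold to 2.3-fold in pie1-5.

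Stress, metabolic and developmental lists held at most 2 members each. Of genes over 2 CPM these were 1 of 9 for heat shock, 1 of 18 for endoplasmic reticulum chaperones and 1 of 11 for phosphate starvation. They were 2 of 27 for detoxification and oxidative stress and 1 of 17 for meristem and leaf polarity, against 160 of all 15882 genes. Heat shock had HSFB2A, a class B heat shock factor with 0.933, 1.1 and 1.23 CPM in pkl-1, 6.31, 5.18 and 5.17 CPM in pie1-5, and 4.48, 1.95 and 3.3 CPM in WT. BIP3, an endoplasmic reticulum chaperone induced by unfolded proteins, had 0.117, 0 and 0.583 CPM in pkl-1, 8.95, 28 and 23.4 CPM in pie1-5, and 7.82, 7.99 and 3.78 CPM in WT. Phosphate starvation had SPX1, a phosphate-sensing inhibitor, with 0.583, 0.899 and 2.46 CPM in pkl-1, 9.16, 6.29 and 8.25 CPM in pie1-5, and 4.42, 3.94 and 2.47 CPM in WT. These were single genes of their lists. Detoxification and oxidative stress had GSTF3, a glutathione transferase, with 2.62, 2.65 and 2.27 CPM in pkl-1, 8.3, 11 and 8.9 CPM in pie1-5, and 4.79, 4.76 and 6.87 CPM in WT. STZ, a zinc-finger repressor of stress responses, had 6.94, 14.5 and 16.3 CPM in pkl-1, 38.8, 85.2 and 42.5 CPM in pie1-5, and 21.2, 19.2 and 33.9 CPM in WT. In STZ a single pie1-5 library was far above the other two. KNAT1, a homeodomain factor of the shoot meristem, had 5.19, 5.24 and 4.8 CPM in pkl-1, 22.8, 19.1 and 16.7 CPM in pie1-5, and 7.89, 9.63 and 7.35 CPM in WT. RAB18, a dehydrin of water stress, had 11.1, 6.74 and 7.52 CPM in pkl-1, 24.8, 34.5 and 38.2 CPM in pie1-5, and 19.1, 17.2 and 24 CPM in WT. It was named on the cold and dehydration list, but its symbol was not matched to a single gene, so it is not counted there. No gene of the jasmonate and ethylene output list (28 over 2 CPM), the clock list (21) or the photosystem list (32) was among the 160. With 160 members among 15882 genes, absence from lists of this size says little.

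**Figure D2:**
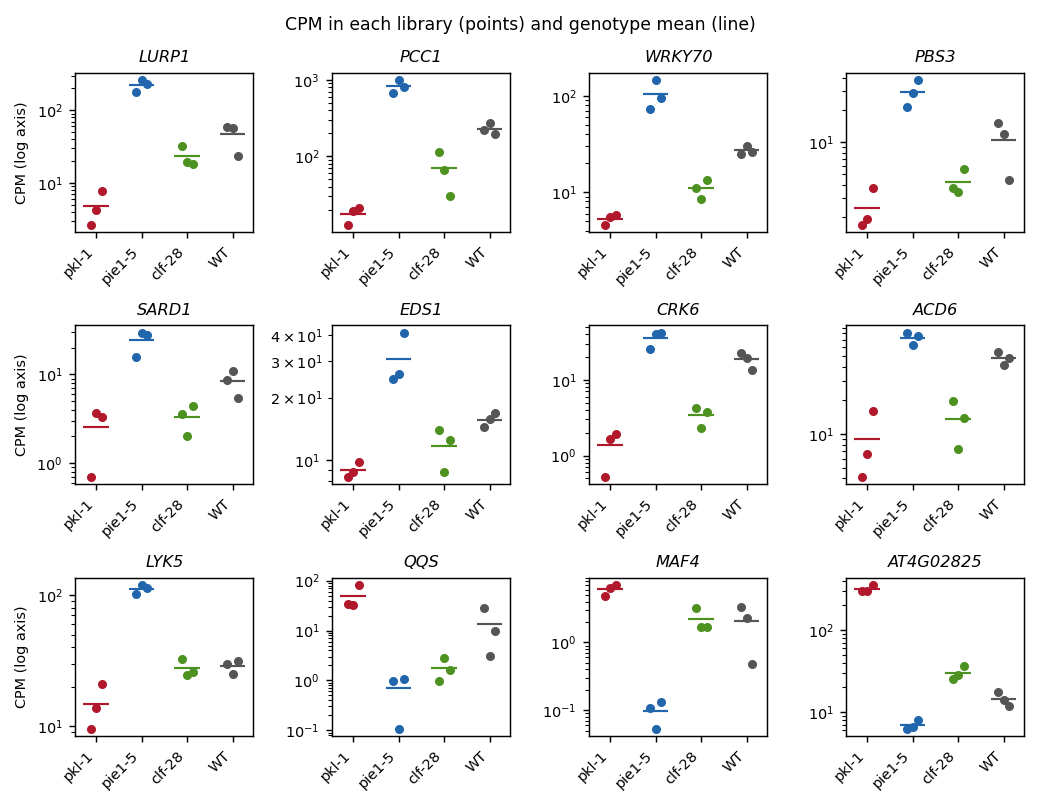
CPM (log axis, own range per panel) of 12 of the genes in each RNA library (points) with the genotype mean (line), in pkl-1, pie1-5, clf-28 and WT from left to right. In LURP1 to LYK5 pkl-1 is lowest and pie1-5 highest; in QQS, MAF4 and AT4G02825 the order of pkl-1 and pie1-5 is turned round.

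The 25 genes higher in pkl-1 and lower in pie1-5 shared no list; MAF4 alone was on one (flowering time, 19 genes over 2 CPM). MAF4, a MADS-box repressor of flowering of the FLC clade, had 4.84, 6.34 and 7.07 CPM in pkl-1, 0.108, 0.0528 and 0.131 CPM in pie1-5, and 3.34, 2.3 and 0.481 CPM in WT. QQS, an orphan gene found only in this species and tied to starch content, had 33.8, 32.6 and 82.5 CPM in pkl-1, 0.97, 0.106 and 1.05 CPM in pie1-5, and 27.9, 3.07 and 9.68 CPM in WT. For both genes WT itself varied several-fold between libraries. AT4G02825, annotated as a misc_RNA, had 297, 296 and 356 CPM in pkl-1, 6.25, 6.55 and 8.05 CPM in pie1-5, and 17.7, 14.1 and 12 CPM in WT. It was 21.7-fold above the WT mean in pkl-1, the largest such difference of the 25. AT5G05060 had 14.2, 14.5 and 20.5 CPM in pkl-1, 0.377, 1.32 and 0.458 CPM in pie1-5, and 8.96, 8.65 and 6.59 CPM in WT. RLP12, a receptor-like protein, had 3.79, 5.74 and 7.2 CPM in pkl-1, 0.27, 0.951 and 0.72 CPM in pie1-5, and 1.96, 2.46 and 1.65 CPM in WT. RLP12 thus ran opposite to RLP34, RLP38 and RLP41. AT4G16240 had 38.1, 24.9 and 26 CPM in pkl-1, 3.18, 2.75 and 5.04 CPM in pie1-5, and 11, 11.2 and 7.14 CPM in WT. AT4G06701, an ncRNA, had 5.31, 4.24 and 4.73 CPM in pkl-1, 0.162, 1.06 and 0.589 CPM in pie1-5, and 1.89, 3.38 and 1.37 CPM in WT. AT5G09240 had 19.5, 15.6 and 16 CPM in pkl-1, 2.26, 1.9 and 1.44 CPM in pie1-5, and 8.9, 9.68 and 7.97 CPM in WT. In the last of these every genotype stayed within a narrow range. AT2G43200 had 19.2, 26.6 and 18.6 CPM in pkl-1, 5.55, 4.7 and 3.8 CPM in pie1-5, and 15.6, 10.8 and 6.87 CPM in WT. AT4G31050 had 11, 16.9 and 11.9 CPM in pkl-1, 1.67, 3.91 and 4.45 CPM in pie1-5, and 7.26, 5.63 and 6.52 CPM in WT. AT1G47820 had 7.64, 5.69 and 6.81 CPM in pkl-1, 1.94, 0.951 and 1.64 CPM in pie1-5, and 3.97, 3.28 and 2.82 CPM in WT. AT1G53870 and AT1G53890 had identical CPM in all 12 libraries (16.9, 14.2 and 21.2 in pkl-1, 1.62, 8.14 and 3.4 in pie1-5, 8.52, 9.06 and 10.4 in WT) and may be counted from the same reads. The remaining 12 of the 25, among them the aquaporin PIP1;5, the transporter ABCB21 and the homeodomain factor HB23, were 1.5-fold to 2.05-fold above WT in pkl-1 and 1.52-fold to 5.09-fold below it in pie1-5.

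Other genes of the same pathways are given from lists chosen with earlier results of these data known. Counts of calls leave out the 160 genes, whose pkl-1 and pie1-5 values the rule used. Calls are at an adjusted p below 0.05 in edgeR's quasi-likelihood test, adjusted over 20375 genes after Benjamini and Hochberg. Against WT, 1.45% of all genes tested were called higher and 2.58% lower in pkl-1, and 3.8% higher and 3.56% lower in pie1-5. Of 8 salicylic acid output genes outside the 160, 5 were called lower and 0 higher in pkl-1, and 0 lower and 2 higher in pie1-5. PR1, the classic marker of the hormone, had 4.08, 22.3 and 3.76 CPM in pkl-1, 98.7, 264 and 291 CPM in pie1-5, and 102, 117 and 54.1 CPM in WT. It missed the rule because pie1-5 replicate 1 lay among the WT libraries. BGL2 (PR2), a glucanase of the same response, had 8.63, 6.29 and 10 CPM in pkl-1, 82.1, 282 and 452 CPM in pie1-5, and 111, 147 and 68.2 CPM in WT, and missed the rule in the same way. Of 11 such synthesis and signalling genes, 3 were called lower in pkl-1 and 2 higher in pie1-5. PAD4, the partner of EDS1, had 2.1, 2.4 and 2.01 CPM in pkl-1, 7.76, 28.3 and 31.7 CPM in pie1-5, and 12.5, 7.68 and 10.5 CPM in WT. EDS16 (ICS1), the isochorismate synthase, had 7.58, 8.89 and 7.45 CPM in pkl-1, 17, 27.4 and 30.2 CPM in pie1-5, and 16, 9.37 and 8.38 CPM in WT. In EDS16 the pkl-1 and WT libraries overlapped, and the pkl-1 mean was 1.41-fold below the WT mean. Of 18 defence WRKY genes 4 were called lower in pkl-1 and 5 higher in pie1-5, and of 31 CRK genes 5 were called lower in pkl-1 and 1 higher in pie1-5. Of 27 pattern receptor and signalling genes 4 were called lower in pkl-1, and 2 higher and 1 lower in pie1-5. Of 16 NLR genes 2 were called lower in pkl-1, and 1 higher and 1 lower in pie1-5. Of 32 jasmonate and ethylene output genes, 12 were called lower and 2 higher in pkl-1, and 11 lower and 2 higher in pie1-5.

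The clf-28 libraries, which the rule did not use, were tested for all 160 genes in the same fit. They were compared with the same WT libraries that served the rule. Of the 135 genes lower in pkl-1 and higher in pie1-5, 36 fell and 1 rose in clf-28, where 1.23% of all 20375 genes fell and 0.918% rose. Their median log2 fold change was -0.59, against -0.00 for all genes tested. All clf-28 libraries lay below all WT libraries in 55 of the 135 genes and above them in 9, against 6.5% below and 13.3% above among the 15882 genes. Of the 25 genes of the reverse pattern, 2 rose and 1 fell, and their median was -0.10. On column-total CPM the median was -0.41 for the 135 genes and 0.07 for the 25, against 0.15 for the 15882 genes, so the sign for the 25 depends on the scaling. DESeq2 called 43 of the 135 genes lower and 1 higher. Over all genes it called 430 lower and 322 higher, where edgeR called 251 and 187. The total of 40 calls fell to 15 without clf-28 replicate 2, 20 without clf-28 replicate 3, 23 without WT replicate 2 and 21 without WT replicate 3. Calls over all genes fell too, from 187 higher and 251 lower in the main fit. They were 81 and 110, 78 and 91, 98 and 150, and 69 and 111, in the same order. Summed senescence markers were higher in clf-28 than in WT, as were summed floral markers, mainly through AG and SEP3 (above).

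**Figure D3:**
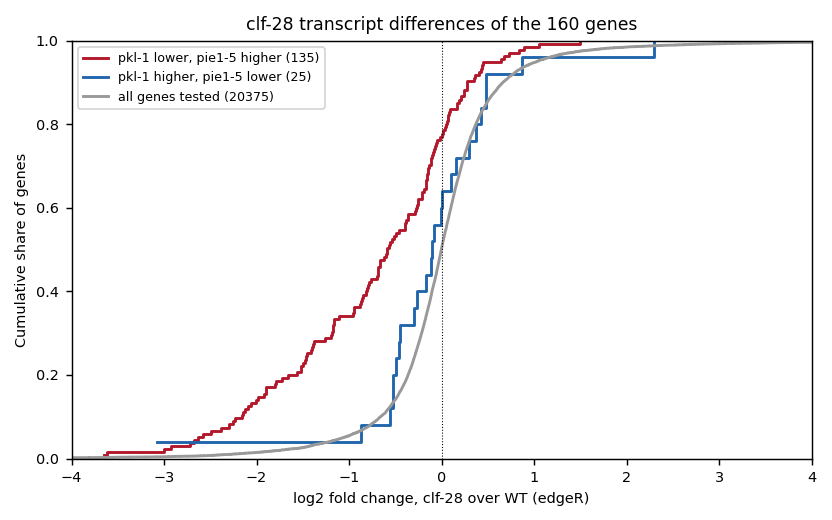
Cumulative share of genes (vertical axis) by edgeR log2 fold change of clf-28 over WT (horizontal axis) for the 135 genes lower in pkl-1 and higher in pie1-5 (red), the 25 reverse genes (blue) and all 20375 genes tested (grey). The red curve lies left of the grey one, with a median of -0.59, and the blue one runs close to it, with a median of -0.10.

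The members called in clf-28 with the smallest p were the following. CRK6 had 4.29, 2.32 and 3.7 CPM in clf-28, against 22.4, 19.6 and 13.5 CPM in WT (log2 fold change -2.58 ± 0.32 SE, adjusted p = 0.000562). AT4G10500 had 0.565, 0.309 and 0.895 CPM in clf-28, against 5.24, 10.1 and 4.12 CPM in WT (-3.62 ± 0.47, adjusted p = 0.000727). WRKY70 had 11.1, 8.57 and 13.5 CPM in clf-28, against 25, 30.3 and 26 CPM in WT (-1.47 ± 0.23, adjusted p = 0.00294). None of these groups overlapped. RLP34 had 10.4, 4.48 and 9.9 CPM in clf-28, against 29, 22.1 and 18.7 CPM in WT (-1.66 ± 0.26, adjusted p = 0.00332). ANK, an ankyrin-repeat protein also called BDA1, had 2.15, 1.62 and 0.955 CPM in clf-28, against 7.26, 7.78 and 9.34 CPM in WT (-2.49 ± 0.41, adjusted p = 0.00393). MYB47, an R2R3-MYB factor, had 0.678, 0 and 0.656 CPM in clf-28, against 5.17, 3.38 and 6.94 CPM in WT (-3.65 ± 0.61, adjusted p = 0.00512). In pie1-5 these genes stood on the other side of WT, for example MYB47 with 15.6, 9.04 and 17.5 CPM. AIG1, named for its induction by the effector AvrRpt2, had 4.01, 1.47 and 1.253 CPM in clf-28, against 12.4, 17.56 and 11.2 CPM in WT (-2.72 ± 0.47, adjusted p = 0.00583). AT3G28540 had 10.8, 5.09 and 7.28 CPM in clf-28, against 25.3, 36.9 and 16.8 CPM in WT (-1.92 ± 0.33, adjusted p = 0.00569). AT5G55450 had 4.46, 3.86 and 2.74 CPM in clf-28, against 15.6, 15.3 and 13.5 CPM in WT (-2.13 ± 0.37, adjusted p = 0.00583). These 9 genes, and AT5G42830 (-2.30 ± 0.41, adjusted p = 0.00675), kept their call whichever clf-28 or WT library was left out, by edgeR's quasi-likelihood test. ACD6 had 19.7, 7.41 and 14 CPM in clf-28, against 54.2, 41.9 and 48.2 CPM in WT (-1.98 ± 0.35, adjusted p = 0.00617), and missed the threshold without clf-28 replicate 3 (adjusted p = 0.0521).

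Several leading genes did not pass the clf-28 test or passed it less surely. PCC1 had 114, 65.6 and 30.4 CPM in clf-28, against 223, 271 and 193 CPM in WT, and fell (log2 fold change -1.79 ± 0.38, adjusted p = 0.0202), but without clf-28 replicate 2, WT replicate 2 or WT replicate 3 the call was lost (adjusted p up to 0.0843). LURP1 had 32.8, 19.4 and 18 CPM in clf-28, against 59.5, 57 and 23.49 CPM in WT (-1.11 ± 0.35, adjusted p = 0.13). PBS3 fell (-1.48 ± 0.35, adjusted p = 0.0397), with a call that 5 of the 6 single-library exclusions ended (adjusted p up to 0.176), whereas SARD1 (-1.50 ± 0.41, adjusted p = 0.0718) and EDS1 (-0.59 ± 0.21, adjusted p = 0.205) did not pass. Thus the clf-28 levels of the synthesis genes were below WT without a firm call. LYK5 had 32.7, 24.5 and 26 CPM in clf-28, against 29.8, 24.8 and 31.3 CPM in WT (-0.19 ± 0.22, adjusted p = 0.78), CRK10 had a log2 fold change of 0.24 ± 0.21 (adjusted p = 0.685), and ADR1-L2 had -0.11 ± 0.24 (adjusted p = 0.9). The 1 gene of this pattern that rose was AT5G01880, with 16, 18.1 and 15.3 CPM in clf-28, against 4.48, 6.2 and 5.15 CPM in WT (2.83-fold higher, adjusted p = 0.0189, log2 SE 0.31), and 4 of the 6 exclusions ended that call (adjusted p up to 0.0919).

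Of the reverse pattern, AT5G05060 rose in clf-28 with 41.7, 35.9 and 57.2 CPM, against 8.96, 8.65 and 6.59 CPM in WT (4.91-fold, log2 fold change 2.29 ± 0.28, adjusted p = 0.000562), and no single exclusion ended the call. AT4G02825 rose 1.83-fold (25.4, 28.2 and 36.4 CPM in clf-28, against 17.7, 14.1 and 12 CPM in WT, 0.87 ± 0.17, adjusted p = 0.013), and 3 exclusions ended that call (adjusted p up to 0.0799). QQS fell 8.45-fold (0.96, 2.78 and 1.61 CPM in clf-28, against 27.9, 3.07 and 9.68 CPM in WT, -3.08 ± 0.68, adjusted p = 0.0259). The QQS call was lost without clf-28 replicate 1, clf-28 replicate 3, WT replicate 1 or WT replicate 3 (adjusted p up to 0.162) and in the fit with a replicate block. MAF4 had 3.22, 1.7 and 1.67 CPM in clf-28 and did not differ detectably from WT (-0.01 ± 0.51, adjusted p = 0.996).

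The same lists are given for clf-28 with their matched members among the 160 included. They had 5 of 9 salicylic acid output genes called lower, with a list median of -1.78, and 4 of 8 outside the 160. Among them DMR6, an oxygenase of salicylic acid that is no member, had 12.7, 7.18 and 8.29 CPM in clf-28, against 55, 84.8 and 58.7 CPM in WT (-2.96 ± 0.28, adjusted p = 4.87e-05). Calls were 1 lower of 14 for synthesis and signalling (median -0.54), 3 lower of 19 for WRKY (-1.17), 6 lower of 35 for CRK (-0.82), 3 lower of 29 for pattern receptors (-0.19) and 1 lower of 17 for NLR genes (0.03), with 0 called higher in each by edgeR's quasi-likelihood test. Outside the 160 genes the lower calls were 0 of 11, 2 of 18, 4 of 31, 3 of 27 and 1 of 16, in the same order. Jasmonate and ethylene output, which held none of the 160 genes, had 7 lower of 32 (-1.37).

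ChIP regions are those of the authors' tables, and a gene was placed in a region that covers at least 200 bases of it. More of the 160 genes lay in H3K27me3 regions than among the 15872 placed genes that reached 2 CPM in WT. In the pkl-1 tables the share was 27.4% (37 of 135) for genes lower in pkl-1 and 36% (9 of 25) for the reverse, against 9.52%. In the pie1-5 tables it was 25.9% and 32% against 9.34%, and in those of clf-28 it was 28.1% and 36% against 9.91%. The positions of all placed genes were also moved by 5 kb. Then 27.4%, 27.2% and 27.6% of them lay in H3K27me3 regions of the pkl-1, pie1-5 and clf-28 tables, near the shares of the 135. H2A.Z regions covered 69.6%, 78.5% and 79.3% of the 135 genes in the pkl-1, pie1-5 and clf-28 tables, against 41.2%, 59.4% and 60.3% of all genes. For the 25 reverse genes the shares were 44%, 60% and 56%. The H2A.Z table of pkl-1 replicate 1 held 10242 regions, and the other H2A.Z tables held 16261 to 17310. A region had to be found in both tables of a mutant, so the pkl-1 shares cannot be compared with those of the other mutants. Where a gene lay in an H2A.Z region, the median part covered in the pkl-1 tables was 78.2% for the 135 genes and 56.9% for the 25, against 40.5% for all. These shares are descriptions of the chosen genes and were not tested. Of the 135 genes 37 lay in regions of both marks in some table and 22 in neither. Of the 25 genes 7 lay in both and 7 in neither. Of the 37 genes under H3K27me3 in pkl-1, 14 fell in clf-28 RNA, and of the 98 others 22 fell and 1 rose.

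**Figure D4:**
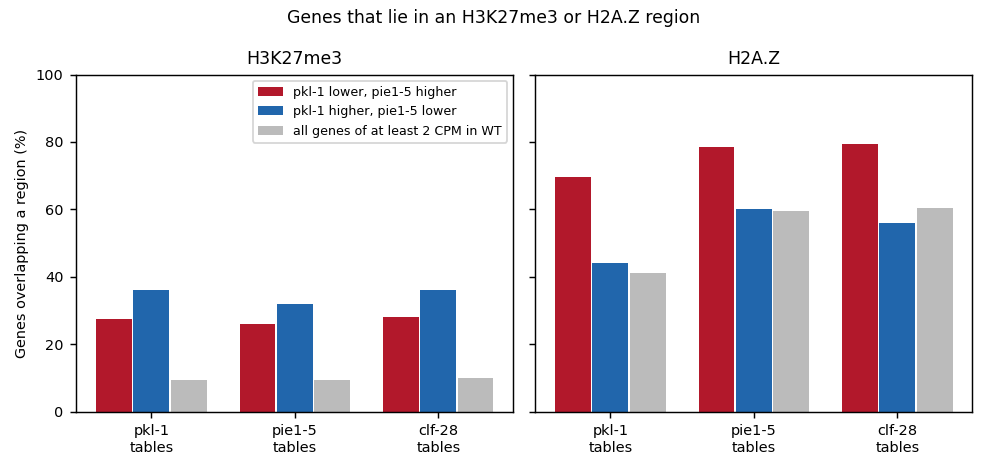
Share of genes (vertical axis, %) that overlap an H3K27me3 region (left) or an H2A.Z region (right) in the tables of each mutant, for the 135 genes lower in pkl-1 and higher in pie1-5 (red), the 25 reverse genes (blue) and all genes of at least 2 CPM in WT (grey). For H3K27me3 both sets stand above the grey bars of 9.34% to 9.91%, and for H2A.Z the red bars of 69.6% to 79.3% are the highest.

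H3K27me3 was lower in pkl-1 than in WT over 15 of the 37 genes and over 5 of the 9 reverse genes, with none higher. Of all 5337 regions 50.8% were called lower and 0.206% higher (edgeR's quasi-likelihood test, adjusted after Benjamini and Hochberg, 2 pkl-1 libraries against 1 WT library). The share was below this background for the 37 genes and near it for the 9. With 1 WT library, the standard errors and p-values of all H3K27me3 tests here measure no spread between WT samples. The median log2 fold change was -0.54 over the 37 genes and -0.77 over the 9, against -0.79 over all regions. The direction rests on scaling by library totals, since with TMM factors over the regions no region of these genes was called and the medians were 0.25 and 0.03, against 0.01 over all. The signal was below WT in both tables for 25 of the 37 genes and above in 3, and below in both for all 9 of the reverse genes, against 92.6% of all regions below and 1.5% above.

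ZAT7 lay in a region at chr3:16920201-16927000 (TAIR10) with 114 and 134 RPM (reads per 1000000 reads of the library) in pkl-1, against 289 RPM in WT (-1.22 ± 0.21 SE, adjusted p = 1.18e-07). GPAT2, a glycerol-3-phosphate acyltransferase, lay at chr1:479401-483800 with 91.1 and 77.2 RPM in pkl-1, against 205 RPM in WT (-1.28 ± 0.24, adjusted p = 2.29e-06). AIG1 had 88.9 and 85.6 RPM in pkl-1, against 174 RPM in WT (SE 0.25 on the log2 scale, adjusted p = 0.000446). Their transcripts were below WT in pkl-1 too, as the rule requires. KNAT1, a known Polycomb target, had 260 and 279 RPM in pkl-1, against 472 RPM in WT (-0.81 ± 0.16, adjusted p = 1.14e-05). PNP-A had 31.5 and 21.7 RPM in pkl-1, against 53.9 RPM in WT (-1.02 ± 0.41, adjusted p = 0.0285). MYB47 had 78.1 and 53.6 RPM in pkl-1, against 121 RPM in WT (-0.87 ± 0.29, adjusted p = 0.00934). The pkl-1 values of these genes were all well below the WT value. PCR1, a cadmium resistance protein of the plasma membrane, had 35.8 and 25 RPM in pkl-1, against 60.1 RPM in WT (-0.98 ± 0.39, adjusted p = 0.0284). AT1G03820 had 183 and 226 RPM in pkl-1, against 392 RPM in WT (-0.94). AT3G22240 had 193 and 198 RPM in pkl-1, against 368 RPM in WT (-0.91), and its neighbour AT3G22235 was also called (-0.75). AT2G27660 had 70.3 and 58.8 RPM in pkl-1, against 120 RPM in WT (-0.89). The other 4 called were RAB18, AT3G26470, AT2G30766 and AT1G66880, at log2 fold changes of -0.60 to -0.86. The AT1G66880 region covers 7.68% of the gene. LURP1 (-0.13, adjusted p = 0.799) and PCC1 (-0.26, adjusted p = 0.531) lay in regions that were not called.

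Of the reverse genes, AT5G05060 lay in a wide region at chr5:1480601-1498400 with 361 and 362 RPM in pkl-1, against 781 RPM in WT (-1.11 ± 0.14, adjusted p = 6.61e-12). AT4G02825 lay at chr4:2180201-2182200 with 11.4 and 13.4 RPM in pkl-1, against 29.4 RPM in WT (2.37-fold lower, adjusted p = 0.0223, log2 SE 0.48). MAF4 lay at chr5:25992001-25995200 with 52.4 and 44.4 RPM in pkl-1, against 87 RPM in WT (-0.84 ± 0.33, adjusted p = 0.0266). RLP12 (-0.77 ± 0.18, adjusted p = 0.0001) and AT4G15160 (-0.51 ± 0.20, adjusted p = 0.0237) were the others called lower. All 5 calls were lost with TMM factors, and their share was near that of all regions, as above.

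In pie1-5 no H3K27me3 region over the 160 genes was called, by edgeR's quasi-likelihood test or DESeq2. Of all 5180 regions 0.0193% were called higher and 0% lower, with 98 at an unadjusted p below 0.05, of which 1 lay over the 35 genes and 1 over the 8 reverse genes tested. DESeq2 called 2 of all regions higher. The medians were -0.25 and -0.28, against -0.32 over all. ZAT7 had 196 and 195 RPM in pie1-5, against 289 RPM in WT, and MAF4 had 71.6 and 62.2 RPM in pie1-5, against 88.4 and 87 RPM in WT over the bounds of each table. Neither was called.

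In clf-28 no H3K27me3 region was called either, with 0% higher and 0% lower of 5441 regions by edgeR's quasi-likelihood test, 3 at an unadjusted p below 0.05 (none over these genes) and 0 by DESeq2. The medians were -0.40 over 38 genes and -0.93 over the 9 reverse genes, against -0.92 over all regions. Replicate 2 of clf-28 held 3.17 M reads, and the standard errors were large, so that differences of the size seen in pkl-1 were not detectable. AT5G05060, which rose in clf-28 RNA, had 286 and 123 RPM in clf-28, against 781 and 782 RPM in WT (-1.93 ± 1.51, adjusted p = 0.932). AT1G06000 had 16.5 and 24.3 RPM in clf-28, against 2.5 and 1.99 RPM in WT (3.26 ± 1.85, adjusted p = 0.932), the largest difference among these genes in size. With TMM factors 1 of the 38 regions and 43 of all regions were called higher, and the medians were 0.50 and 0.12, against -0.04 over all.

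No H2A.Z region over the 160 genes was called in any mutant by edgeR's quasi-likelihood test or by DESeq2. In pie1-5, 106 of the 135 genes lay in a region, and the signal was below WT in both tables in 100 of them and above in none, against 93.2% of all regions below and 0.192% above. LYK5 had 16.9 and 15.5 RPM in pie1-5, against 34.8 and 26.8 RPM in WT, and PCC1 had 4.99 and 7.95 RPM in pie1-5, against 14.1 and 14.5 RPM in WT. EP1 had the largest difference, with 8.27 and 13.8 RPM in pie1-5, against 30.7 and 24.9 RPM in WT (log2 fold change -1.33). These genes were higher than WT in pie1-5 RNA, while MAF4, which was lower there, also had 45.9 and 54.2 RPM in pie1-5, against 99 and 77.3 RPM in WT. The median was -0.75 over the 135 genes and -0.60 over the 25, against -0.73 over all regions. With TMM factors over the regions these medians were -0.00 and 0.14, against 0.02 over all, so the direction rests on scaling by library totals. Of all 14595 regions 0.0206% were called higher and 0% lower. At an unadjusted p below 0.05 there were 1878 regions, 20 over the 135 genes and 0 over the 25. DESeq2 called 3 of all regions higher. The medians differed between the pie1-5 libraries. Without pie1-5 replicate 2 they were -1.19 over the 135 genes and -1.15 over the 25, against -1.17 over all regions. Without pie1-5 replicate 1 they were -0.46 and -0.36, against -0.41 over all. Each of these fits holds 1 pie1-5 library and no spread within pie1-5, so no calls are given for them.

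In pkl-1 the H2A.Z levels over these genes were near WT. The median was 0.04 over 94 of the 135 genes and -0.14 over 11 of the 25, against 0.00 over all 9886 regions, of which 0% were called higher and 0.0101% lower. At an unadjusted p below 0.05 there were 352 regions, 5 over the 135 genes and 3 over the 25, and DESeq2 called 10 of all regions higher and 3 lower. PBS3 H2A.Z was 85.1 and 61.5 RPM in pkl-1, against 83.3 and 57.1 RPM in WT, and CRK6 had 109 and 64.7 RPM in pkl-1, against 102 and 60.9 RPM in WT. The transcripts of both genes were below WT in pkl-1. AT4G02825, whose transcript was the most raised of the 25 in pkl-1, had 10.6 and 14.8 RPM in pkl-1, against 20.4 and 22.4 RPM in WT (-0.77 ± 0.17, adjusted p = 1). With the replicate number as a block 2 regions over the 135 genes and 2 over the 25 were called lower. Of all 9886 regions 53 were then called lower and 70 higher. In clf-28 the medians were -0.25 and -0.40, against -0.27 over all 14564 regions, with 0% called higher and 0% lower. There 1693 regions had an unadjusted p below 0.05, 9 over the 135 genes and 5 over the 25, and DESeq2 called 2 of all regions higher.

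**Figure D5:**
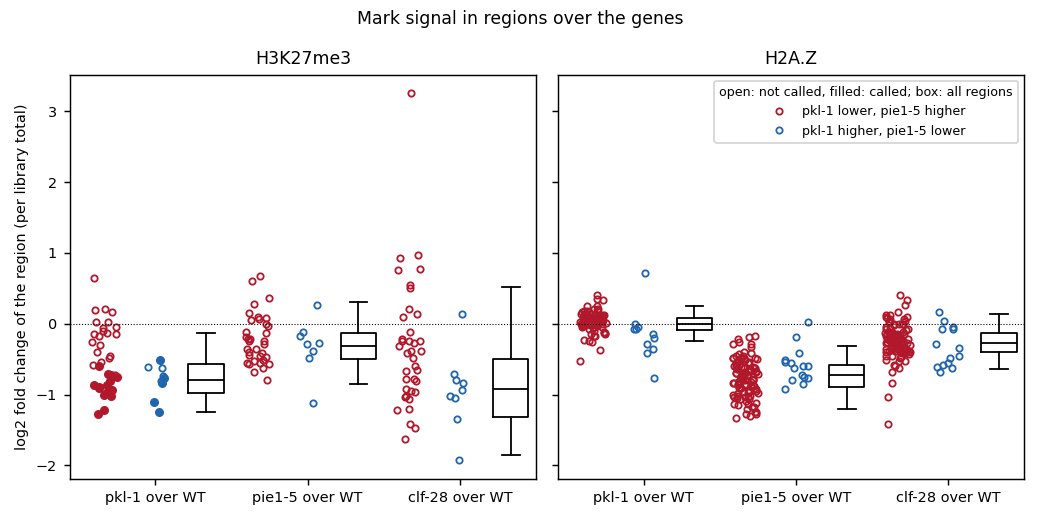
Log2 fold change of mutant over WT, per library total, of the H3K27me3 (left) and H2A.Z (right) regions over the 135 genes (red) and the 25 reverse genes (blue), with filled points for regions called by edgeR, beside a box of all regions tested (median line, quartiles, whiskers from the 5th to the 95th percentile). Filled points occur in pkl-1 H3K27me3 only, 15 red and 5 blue, and in H2A.Z the points of pie1-5 lie around a median of -0.75 for red and -0.60 for blue.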

How the data were processed

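Libraries came from pkl-1, pie1-5, clf-28 and WT shoots (3 RNA and 2 ChIP libraries per genotype and mark). The authors deposited raw read counts per gene, and per ChIP table the read count and RPM (reads per 1000000 reads of the library, per the file headers) of each region in 1 mutant and 1 WT library. The submitters' processing notes name Trimmomatic, Bowtie2, edgeR, SICER, bedtools, deepTools and the build TAIR10. Which program counted the reads over genes is not given. The cDNA kit does not mark strand, so overlapping genes cannot be told apart.

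CPM used the total of nuclear genes as denominator. RNA counts of all 12 libraries were fitted with edgeR 4.0.16 (R 4.3.3, TMM, filterByExpr, quasi-likelihood F test, Benjamini-Hochberg adjustment over 20375 genes), with DESeq2 1.42.0 as alternative. A call is an adjusted p below 0.05. Regions of both replicate tables were paired where they shared at least 50% of the shorter one, and their counts were tested the same way with library totals (count divided by RPM) and region length as offsets. The H3K27me3 tests rest on 1 WT library, so they hold no measure of spread between WT samples. The tables do not say which WT replicate a WT column holds. Genes were placed with the TAIR10.1 RefSeq table, from which 15872 of 15882 genes had a position. The scripts were tested on simulated data. Anti-H3 and input libraries and the authors' own edgeR table were not used here.

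The members and gene lists (35 lists, 776 genes matched of 892 symbols) were chosen with earlier results of these data known. Genes named are the 12 with the largest smaller difference in the larger pattern, members on a list, the clf-28 calls with the smallest p, called ChIP regions, and others chosen after their values were seen. The lists named NIMIN2, RPS2 and RAB18, but these symbols were not matched to a single gene. The members NIMIN-2, RPS2 and RAB18 are therefore missing from the list counts. Replicate numbers did not pair clf-28 and WT libraries (correlation of deviations 0.02, 0.01 and 0.08). Promoter motifs were not analysed here. Alternatives were other scalings, filters, fold limits, a replicate block and leaving out each library.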

Additional observations from a re-analysis of the deposited data

How the results depend on the processing

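The count of 160 genes was 65 at a fold limit of 2, 267 at a looser limit, and 173 to 266 when 1 library was left out, the highest without pie1-5 replicate 1; the other 13 settings stayed within 1.5 times. The 40 calls in clf-28 became 15 to 29 when 1 library was left out (15 without clf-28 replicate 2, 20 without clf-28 replicate 3, 23 without WT replicate 2, 21 without WT replicate 3), and 35 with a replicate block, although the replicate numbers do not pair the samples. Calls over all genes fell as well, from 187 higher and 251 lower. They were 81 and 110 without clf-28 replicate 2, and 158 and 227 with the block. Each of the 40 calls kept its sign under each RNA setting run. The 20 H3K27me3 calls in pkl-1 became 0 with TMM factors over the regions, which set the median region near no change. With the same factors clf-28 had 1 H3K27me3 call. For H2A.Z the count of 0 became 4 in pkl-1 and 1 in clf-28 with a replicate block, and 0 to 114 in pie1-5 when 1 library was left out, 114 being without pie1-5 replicate 2; leaving out a library gave 0 to 0 in pkl-1 and clf-28. Causes of these shifts were not tested. Asking for a region over at least 50% of the gene, chosen after seeing the data, moved no count by over 1.5 times. No paired analysis was possible because H3K27me3 has 1 WT library, and leaving out a library was not run there. With 2 ChIP libraries per mutant, and 3.17 M reads in clf-28 replicate 2 of H3K27me3, small differences were not detectable.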
